A study of Saccharomyces cerevisiae with 3 samples.

Results

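The 10 genes of the osmotic HOG pathway and of glycerol synthesis in baker's yeast, out of 5539 named genes on the arrays, are described here. They are the spots whose symbol in the platform annotation is SLN1, SSK1, SHO1, PBS2, HOG1, GPD1, GPD2, GPP1, GPP2 or STL1, and all 10 were found, each with 2 neighbouring spots. The arrays held RNA of a yap1 deletion mutant in Cy3 and RNA of the wild type in Cy5 on the same slide. Both strains had been exposed to 0.2 mM As(III), arsenite, for 1 h, and 3 such arrays were labelled as replicates 1 to 3. Arsenite is thus shared by the mutant and the wild type, and no unexposed cells enter the comparison, so the values describe the strains under arsenite and not a response to it. The strain background, the growth medium and whether the arrays stem from separate cultures are not stated in the labels. A p-value here therefore covers the variation among the arrays alone, and that may be technical.

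The high osmolarity glycerol (HOG) pathway is a mitogen-activated protein (MAP) kinase cascade that lets yeast survive loss of water to its surroundings. Membrane sensors feed a Sln1 branch and a Sho1 branch, which meet at the MAP kinase kinase Pbs2 and the MAP kinase Hog1. Active Hog1 raises transcription of genes of glycerol synthesis, and the glycerol kept in the cell balances the osmotic pressure outside. Hog1 is also known to respond to arsenite and to restrain Fps1, the glycerol channel through which arsenite enters yeast. Yap1, the factor that the mutant lacks, is a transcription activator of oxidative and metal stress defence.

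Values are deposited log ratios of the channels minus the median over genes of the same array, in units of the deposited logarithm. The sources used here do not say whether a ratio is mutant over wild type, as the titles name them, or Cy5 over Cy3, nor do they give the base of the logarithm. A gene is therefore placed on the high or low side of the array median, and neither the strain that held more of its RNA nor a fold change can be named. All arrays have 1 dye orientation, so a dye effect and a strain difference cannot be told apart. A ratio of bulk RNA also cannot tell fewer cells that express a gene from less RNA per cell. The array medians were −2.11, −2.30 and −1.59, and 96.9% to 98.9% of genes lay below 0 as deposited. Genes were tested against 0 with limma, an adjusted p under 0.05 being a call. Of all genes, 28.5% were called, 16% being high and 12.5% low. YAP1 itself lay at −1.43, −0.22 and −0.74 on replicates 1, 2 and 3, at percentiles 2.5, 39.5 and 9.5 among all genes. Its mean of −0.80 was called low (limma adjusted p = 0.0323). It was not called without replicate 1 (−0.48, adjusted p = 0.226) or with the second spot of each gene alone (−0.32, adjusted p = 0.453). Its repeated spots differed by an SD of 0.755, so YAP1 was not taken to settle the direction.

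Of the 10 genes, 3 were called on the high side (GPP1, GPD2 and GPP2), all of them glycerol synthesis enzymes, and 0 on the low side. At 30%, the share called is near the 28.5% of all genes, so the set as a whole does not stand out. At an unadjusted p under 0.05 limma gave the same counts, 3 high and 0 low. The median of the 10 means was 0.30, with medians of 0.51, 0.36 and 0.27 on the 3 arrays. Within the set, 3 of 4 glycerol synthesis genes passed, and 0 of 5 genes of the sensors and kinases passed in either direction, adjusted or not. The glycerol importer gene STL1 did not pass.

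**Figure D1:**
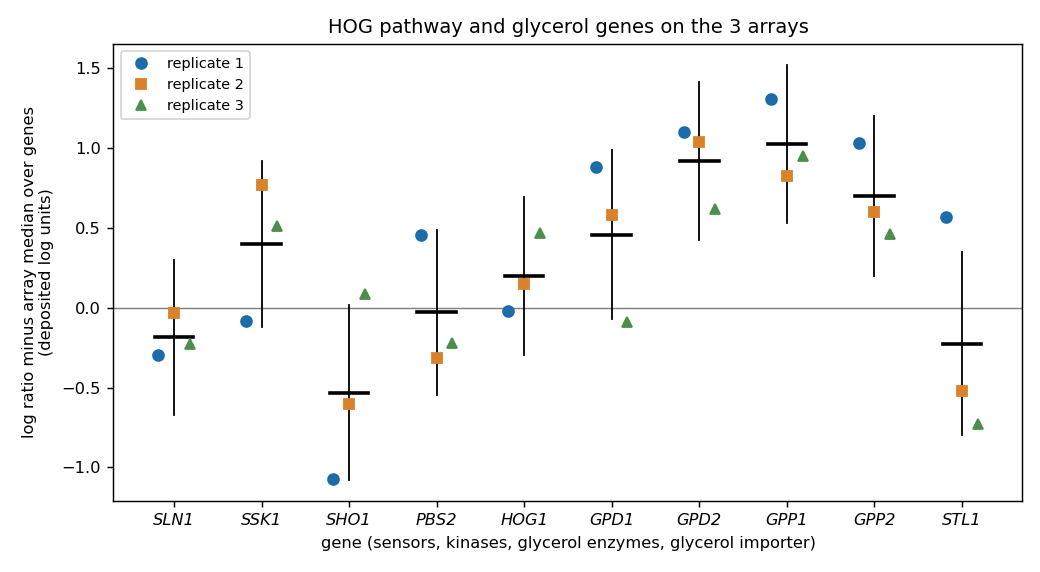
Log ratio minus the array median over genes (vertical axis, deposited log units) for the 10 genes, with a symbol for each replicate array, a thick bar for the mean and a thin line for limma's 95% confidence interval. GPD2, GPP1 and GPP2 lie above 0 on all 3 arrays, while the values of PBS2, STL1, SSK1, SHO1, HOG1 and GPD1 fall on both sides of 0.

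Glycerol is made from a glycolytic intermediate in 2 steps. NAD-dependent glycerol-3-phosphate dehydrogenase, encoded by GPD1 and GPD2, carries out the first. GPD1 (YDL022W) is the isoform known for induction by osmotic stress. It had values of 0.88, 0.58 and −0.09 on replicates 1, 2 and 3. Replicates 1 and 2 were high and replicate 3 close to the median, at percentiles 85.7, 73.2 and 42.8 among all genes. Its mean was 0.46 ± 0.49 (SD, n = 3), with a 95% interval from −0.07 to 0.99 and a limma adjusted p of 0.181.

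GPD2 (YOL059W), the isoform known for restoring redox balance when oxygen is short, had values of 1.10, 1.04 and 0.62. All 3 arrays placed it on the high side, between percentiles 85.3 and 90.0 among all genes. Its mean was 0.92 ± 0.26 (SD, n = 3), with a 95% interval from 0.42 to 1.41, and limma gave an adjusted p of 0.00922. The spot pair of GPD2 disagreed on the first arrays: the lower-numbered spot read 0.57 and 0.65 on replicates 1 and 2, where the other read 1.63 and 1.42. On replicate 3 they read 0.75 and 0.48, so every reading was above 0. With the lower-numbered spot of each gene alone, GPD2 had a mean of 0.65 and was not called (adjusted p = 0.0978).

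The second step, removal of the phosphate, is carried out by the glycerol-3-phosphatases encoded by GPP1 and GPP2. GPP1 (YIL053W) had values of 1.30, 0.82 and 0.95, the highest mean of the 10 genes at 1.02 ± 0.25 (SD, n = 3). It lay between percentiles 81.5 and 92.7 among all genes on every array, with a 95% interval from 0.53 to 1.52 and a limma adjusted p of 0.0047. Its readings ran from 0.72 to 1.67 over both spots and all arrays. GPP2 (YER062C), the isoform known for osmotic induction, had values of 1.03, 0.60 and 0.46. These also lay on the high side of every array, with a mean of 0.70 ± 0.30 (SD, n = 3), a 95% interval from 0.20 to 1.20 and a limma adjusted p of 0.0378. GPP2 stands close to the threshold: the smallest absolute mean of any called gene was 0.63.

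Each of the calls needed replicate 3. That of GPD2 needed replicate 2 as well, and that of GPP2 all 3 arrays. Without replicate 3, none of the 10 genes was called by limma, and GPP1 had a mean of 1.06 (adjusted p = 0.0797), GPD2 of 1.07 (0.0713) and GPP2 of 0.81 (0.123). In that setting, 275 genes were called high and 48 low over the whole array, so calls were fewer everywhere. Without replicate 2 only GPP1 was called, and without replicate 1 both GPP1 and GPD2 were called. With replicate 1 or replicate 2 left out, limma's adjusted p followed the size of the mean alone. It does not measure a gene's own spread between arrays in those settings.

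**Figure D2:**
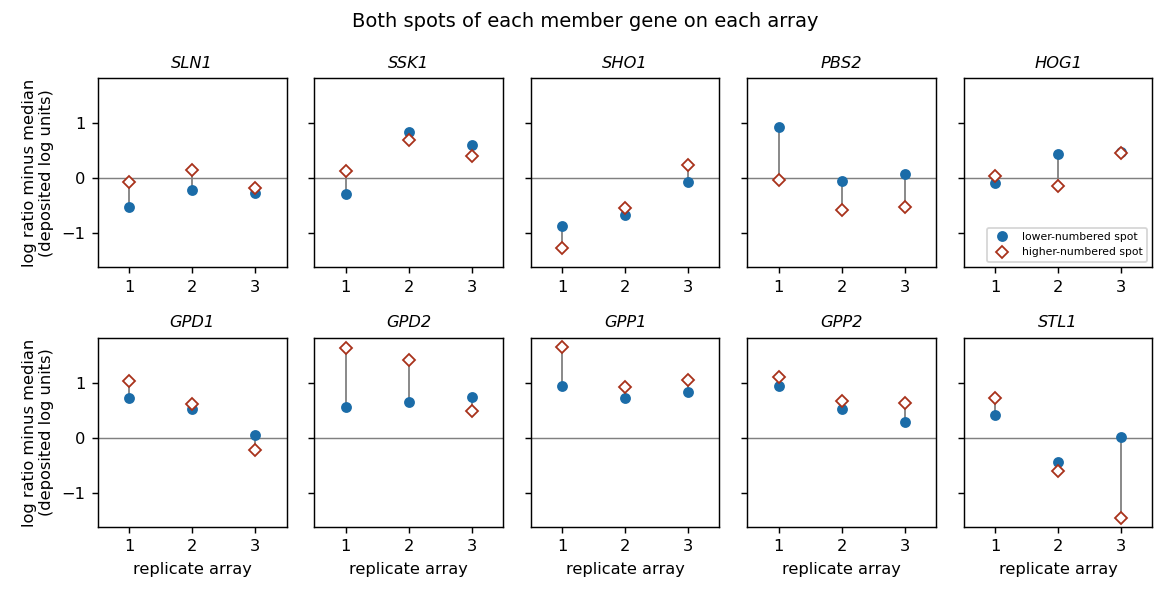
Both spots of each of the 10 genes on each replicate array (horizontal axis), as log ratio minus the array median over genes (vertical axis, deposited log units), with a line joining the spots of an array. All readings of GPD2, GPP1 and GPP2 lie above 0, and the widest gaps within an array are those of STL1 on replicate 3, GPD2 on replicate 1 and PBS2 on replicate 1.

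A shift common to all genes of an array cancels in the difference between paralogs. GPD1 minus GPD2 was −0.22, −0.46 and −0.70 on replicates 1, 2 and 3, so GPD1 was the lower of the pair on every array. The mean difference was −0.46 ± 0.24 (SD, n = 3), with a 95% interval from −1.06 to 0.13. GPP1 minus GPP2 was 0.27, 0.23 and 0.49, with GPP1 the higher on every array. Its mean was 0.33 ± 0.14 (SD, n = 3), with an interval from −0.02 to 0.68. The intervals of these differences are plain t intervals from the 3 values and not limma's. Their widths cannot be set against those of single genes. With both spots averaged, the isoform known for osmotic induction was thus the lower in both pairs. The lower-numbered spots alone did not show this order on replicate 1. There GPD1 read 0.72 and GPD2 0.57, and GPP1 and GPP2 both read 0.94. The exact two-sided sign-flip permutation test gave p = 0.25 for each (0.375 adjusted over the 3 differences tested), which is the smallest p that 3 arrays allow. Both pairs are close paralogs whose spots can take up RNA of the partner gene, so the values of single isoforms are uncertain.

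SLN1, SSK1 and SHO1, the sensor and relay genes among the 10, were not called. SLN1 (YIL147C), for the membrane histidine kinase that senses osmotic pressure, had values of −0.29, −0.03 and −0.23. They were all slightly on the low side and close together. The mean was −0.19 ± 0.14 (SD, n = 3), and the 95% interval ran from −0.67 to 0.30 (limma adjusted p = 0.569). SSK1 (YLR006C) encodes the response regulator at the end of the Sln1 phosphorelay, which switches on the next kinases. Its values were −0.08, 0.77 and 0.51, at the median on replicate 1 and on the high side of the others. The mean was 0.40 ± 0.44 (SD, n = 3), with an interval from −0.12 to 0.92 (limma adjusted p = 0.234).

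SHO1 (YER118C), for the membrane protein that anchors the other branch, had the lowest mean of the 10 genes. Its values were −1.07, −0.61 and 0.08, on the low side of replicates 1 and 2 and at the median of replicate 3. The mean was −0.53 ± 0.58 (SD, n = 3), with an interval from −1.08 to 0.02 (limma adjusted p = 0.133). Its 2 spots followed each other, at −0.87 and −1.28 on replicate 1, −0.66 and −0.55 on replicate 2, and −0.07 and 0.24 on replicate 3, so the arrays differed more than the spots did. SLN1 minus SHO1 was 0.78, 0.57 and −0.31, a mean of 0.35 ± 0.58 (SD, n = 3), with p = 0.5 in the exact sign-flip permutation test.

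Neither kinase gene passed. PBS2 (YJL128C), for the MAP kinase kinase on which the branches converge, had values of 0.45, −0.32 and −0.22, with a mean of −0.03 ± 0.42 (SD, n = 3). The array with the high value was also the one whose spots differed most, at 0.94 and −0.03. The 95% interval of PBS2 ran from −0.55 to 0.49 (limma adjusted p = 0.941). HOG1 (YLR113W), for the MAP kinase, had values of −0.02, 0.15 and 0.47, with a mean of 0.20 ± 0.25 (SD, n = 3). Its interval ran from −0.30 to 0.69 (limma adjusted p = 0.553). The interval of HOG1 holds shifts as large as 0.63, the smallest called elsewhere, so the missed threshold does not show that its transcript was equal in the strains.

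STL1 (YDR536W) encodes the glycerol/proton symporter that takes glycerol back into the cell, and is known as one of the genes most dependent on Hog1 in osmotic stress. It changed side between arrays, with 0.57 on replicate 1 and −0.52 and −0.73 on replicates 2 and 3. The SD of 0.70 (n = 3) was the largest of the 10 genes, around a mean of −0.23 (limma adjusted p = 0.554). On replicate 3 its spots read 0.01 and −1.47, so part of that value rests on 1 spot.

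Ordered by mean, the genes ran GPP1, GPD2, GPP2, GPD1, SSK1, HOG1, PBS2, SLN1, STL1 and SHO1. Of the 9 neighbouring pairs in that order, only GPD2 and GPP2 differed by more than the SD of their difference over arrays, at 0.22 ± 0.19. The separation of the glycerol synthesis genes from the 5 sensor and kinase genes varied by array. On replicate 1 the glycerol synthesis genes spanned 0.88 to 1.30 and the sensors and kinases −1.07 to 0.45, with no overlap. On replicate 2 the glycerol genes spanned 0.58 to 1.04 against −0.61 to 0.77, and on replicate 3 −0.09 to 0.95 against −0.23 to 0.51, so they overlapped there.

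The ratio of a gene on these arrays moved with how well its repeated spots agreed, and those values are given here beside the calls. Among 10 equal groups of genes ordered by the SD between repeated spots, the groups' median ratios ran from −0.54 where agreement was worst to 0.59 where it was best. GPP2 had a spot SD of 0.17, in a group with a median ratio of 0.32, and GPD1 also had 0.17. GPP1, with a spot SD of 0.32, stood in a group with a median of −0.04, and GPD2, at 0.55, in one with a median of −0.30. After the trend was removed on each array, GPP1 had a mean of 1.01 (limma adjusted p = 0.0133) and GPD2 of 1.21 (adjusted p = 0.00776), and both were still called. GPP2 then had 0.35 (adjusted p = 0.278) and GPD1 0.10 (adjusted p = 0.791). GPP1 and GPD2 were thus called with and without the trend, and GPP2 only with it. Channel intensities were not analysed here.

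**Figure D3:**
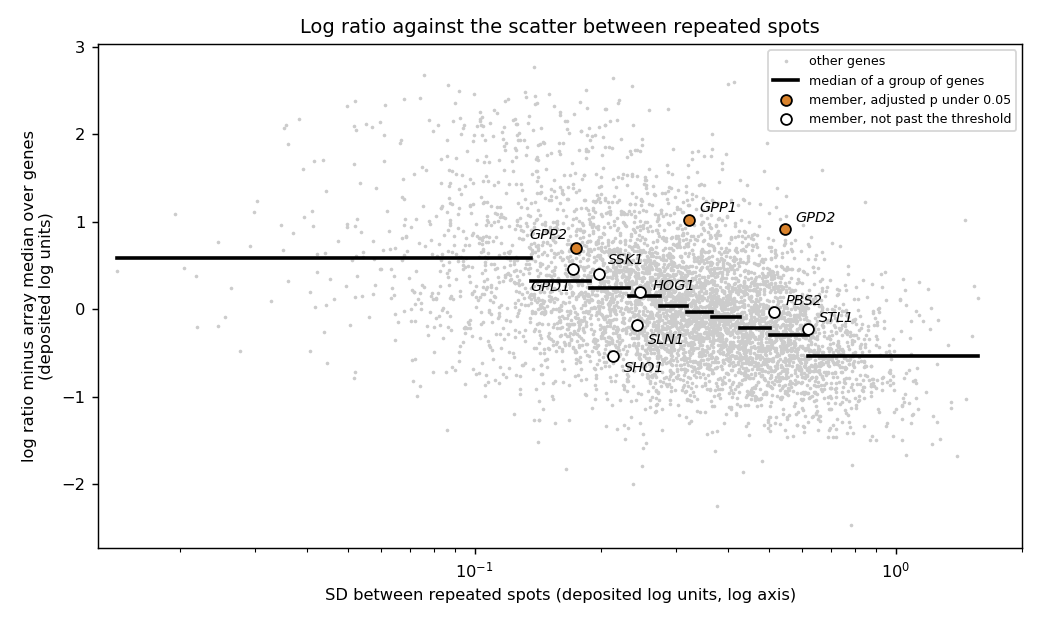
Mean log ratio minus the array median (vertical axis, deposited log units) against the SD between repeated spots (horizontal log axis, same units) for all genes in grey, with black bars at the median of each of 10 groups of genes ordered by this SD. GPP1 and GPD2 lie well above the bars for their scatter, GPP2 and GPD1 closer to theirs, and SHO1 below its bar.

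Spots without a gene symbol at fixed positions of the print blocks formed 192 pairs that lay low on all arrays, with medians of −0.99, −1.22 and −0.88. The means of GPD1, GPD2, GPP1, GPP2 and SSK1 lay above all 192 of these pairs, HOG1 above 190, PBS2 above 189, SLN1 above 185, STL1 above 184 and SHO1 above 173. Set against the median of those pairs instead of the array median, 9 of the 10 genes were called high by limma. SHO1, at 0.50, was the exception (adjusted p = 0.109). In that setting 4170 of 5539 genes were called high, so it moves nearly the whole array. With values as deposited, all 10 genes were called low, with means between −2.53 (SHO1) and −0.98 (GPP1). The side of 0 thus depends on the centring. Both settings shift all genes of an array together, so the order of the 10 means could not change. Other settings did change it. With print blocks centred separately, SSK1 (0.65) stood above GPD2 (0.64) and GPD1 (0.28). With the scatter trend removed, GPD1 (0.10) fell below PBS2 (0.22), STL1 (0.16) and SSK1 (0.11).

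**Figure D4:**
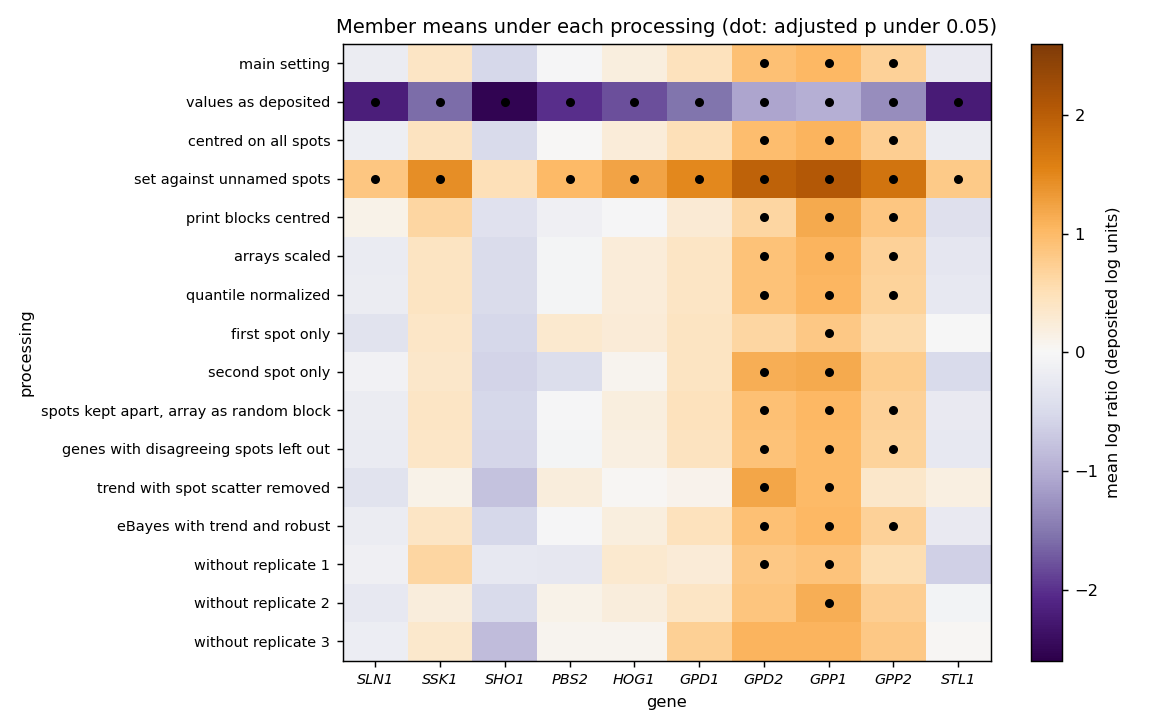
Mean log ratio of each of the 10 genes (columns) under each processing (rows), coloured on the deposited log scale, with a dot where limma's adjusted p was under 0.05. GPP1, GPD2 and GPP2 have a dot in most rows, GPP2 in the fewest of them. In the row for values as deposited the dots mark low-side calls. That row and the row for values set against unnamed spots shift all genes together.

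The wider pathway was described through lists of textbook members, 68 genes in all, of which 58 are outside the 10. Of these 58, 24 were called (9 high, 15 low), or 41.4% against the 28.5% of all genes. Their median was −0.08. Without replicate 3, 1 was called high and 3 low. The lists were chosen with earlier results of these data known, so the larger share called is not independent evidence about the pathway. Calls fell on both sides in the Sho1 branch, among the proteins that act with Hog1, in glycerol transport and breakdown, and among osmotic response genes. Of the list genes named below, HKR1, GUP1, HSP12 and CTT1 were called whichever single array was left out.

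In the Sln1 branch, 0 of 5 genes passed in limma in either direction, adjusted or at an unadjusted p under 0.05, with a median of 0.09. SSK1 and SLN1, given above, were the farthest from 0. In the Sho1 branch 1 of 10 genes was high and 1 low, 20% against 28.5% of all genes, with a median of 0.18. These were the genes of its mucin-like membrane sensors, on opposite sides. MSB2 had 1.14, 1.48 and 0.55 (mean 1.06, limma adjusted p = 0.00567), and was not called without replicate 2 (adjusted p = 0.0608) or replicate 3 (adjusted p = 0.0566). HKR1 had −1.71, −1.27 and −1.42 (mean −1.47, limma adjusted p = 0.000316), at percentile 0.37 among all genes. That mean lies within the range of the 192 unnamed pairs, 21 of which were lower. Set against the median of those pairs, HKR1 had −0.44 and was not called (limma adjusted p = 0.156).

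Around the kinases the list median was 0.17, and 1 of 8 genes passed, on the low side, or 12.5% against 28.5% of all genes. It was PTP2, for the tyrosine phosphatase that turns Hog1 off, with the close values of −0.66, −0.73 and −0.83 (mean −0.74, limma adjusted p = 0.0249). It was not called without replicate 2 (adjusted p = 0.111) or replicate 3 (adjusted p = 0.143). Among 12 genes for proteins on which Hog1 acts or which act with it, 3 were high and 2 low, with a median of 0.06. The share called was 41.7%, against 28.5% of all genes. RCK2, for a protein kinase that Hog1 phosphorylates, had 1.00, 1.47 and 1.03 (mean 1.16, limma adjusted p = 0.00206). TUP1 and CYC8, for subunits of one corepressor complex, had means of 1.12 and 0.97, on the high side of every array. SKO1, for the bZIP factor that brings this corepressor to osmotic genes, lay on the other side at −0.48, −0.87 and −1.42 (mean −0.92, limma adjusted p = 0.0126). MSN1, for a further transcription factor, had a mean of −0.72. With the scatter trend removed, CYC8 (0.26), SKO1 (−0.35) and MSN1 (−0.59) were no longer called, which leaves 2 high and 0 low in this list.

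**Figure D5:**
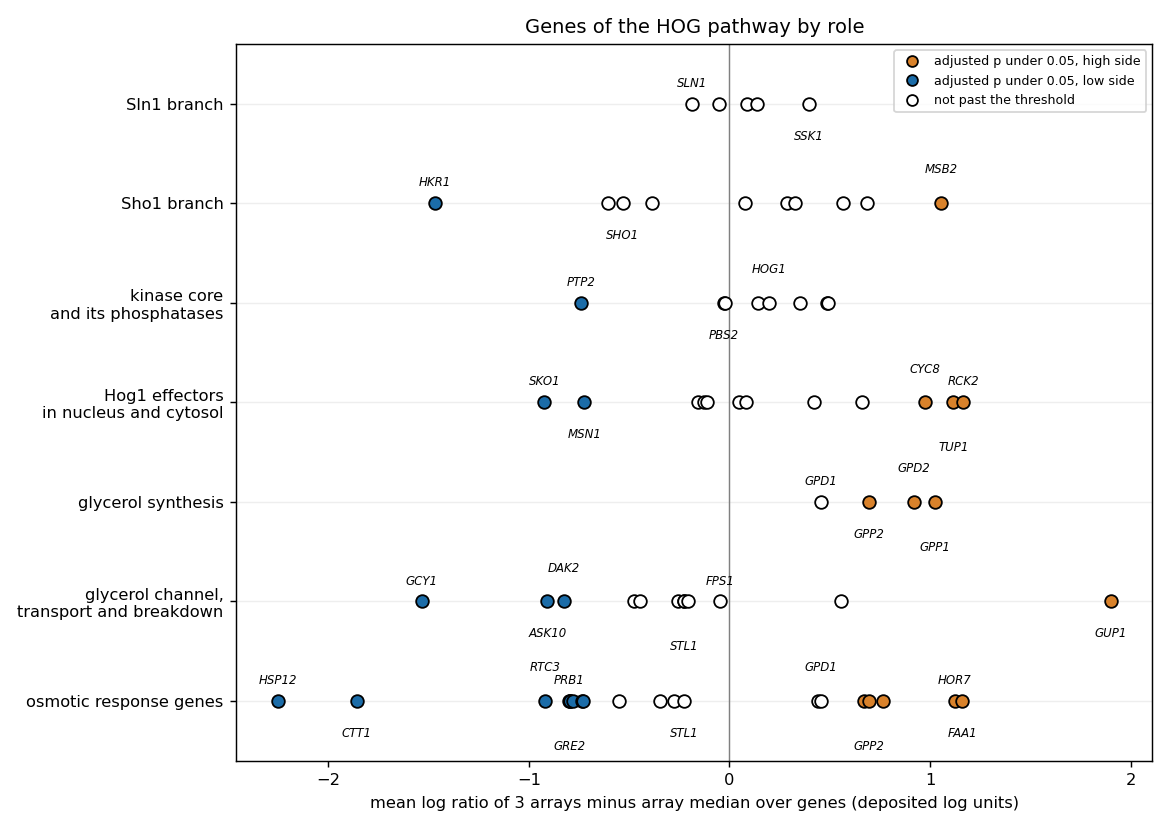
Mean log ratio of 3 arrays minus the array median (horizontal axis, deposited log units) for the genes of each step of the pathway (rows), filled orange for high-side limma calls, blue for low-side calls and white for genes that did not pass. The 4 glycerol synthesis genes all lie right of 0, and other rows hold genes on both sides.

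FPS1 (YLL043W), the glycerol and arsenite channel gene, had 0.03, −0.19 and 0.03, at percentiles 51.4, 40.7 and 51.9 among all genes. Its spots disagreed, at 0.05 and −0.43 on replicate 2 and 0.39 and −0.33 on replicate 3. Its mean was −0.05 ± 0.13 (SD, n = 3), with a 95% interval from −0.53 to 0.44 (limma adjusted p = 0.897). The 4 glycerol synthesis genes had a median of 0.81, against −0.24 for 12 genes of glycerol channel, transport and breakdown. Of these 12, 1 was high and 3 were low, or 33.3% called against 28.5% of all genes. GUP1, for a membrane acyltransferase once linked to glycerol uptake, had 1.62, 2.32 and 1.76 (mean 1.90, limma adjusted p = 3.86e-05). GCY1, for a glycerol dehydrogenase of the glycerol breakdown route, had −1.91, −0.96 and −1.73 (mean −1.53, limma adjusted p = 0.000417). Of the unnamed pairs, 11 were lower, and against their median GCY1 had −0.50 and was not called (limma adjusted p = 0.103). DAK2, for a dihydroxyacetone kinase of the same route, had a mean of −0.82 (limma adjusted p = 0.0174). ASK10, also called RGC2, for a regulator of the Fps1 channel, had −0.44, −0.91 and −1.37 (mean −0.91, limma adjusted p = 0.0135). With the scatter trend removed, ASK10 had −0.72 and was not called (adjusted p = 0.0698). When each print block was centred on its own median, ASK10 (−0.67), DAK2 (−0.58), MSN1 (−0.61) and PRB1 (−0.57) were not called.

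Of 20 genes known to be induced in osmotic stress, GPD1, GPP2 and STL1 among them, 5 were high and 8 low, with a median of −0.45. That is 65% called, against 28.5% of all genes (16% high, 12.5% low), in a list chosen with earlier results of these data known. The counts were 0 high and 2 low without replicate 3, 2 high and 4 low without replicate 2, 2 high and 6 low without replicate 1, and 1 high and 6 low with the scatter trend removed. The low side was led by HSP12, for a small membrane-protecting stress protein, at −2.78, −1.52 and −2.45, and by CTT1, for cytosolic catalase, at −1.67, −2.11 and −1.80. RTC3 (mean −0.92) and the vacuolar protease gene PRB1 (mean −0.80) followed. The high side was led by FAA1, for a fatty acid activating enzyme, at 1.66, 1.08 and 0.74 (limma adjusted p = 0.00305). FAA1 was not called with the scatter trend removed, at 0.54 (adjusted p = 0.127), or without replicate 3 (adjusted p = 0.058). HOR7, named for its response to high osmolarity, had 1.01, 1.68 and 0.68 (limma adjusted p = 0.00422). GPP1, GPD2 and GPP2 lay on the side of the array median opposite to HSP12 and CTT1. That is also the side of the 5 list genes called high, of which GPP2 is one. Without replicate 2, CYC8 (adjusted p = 0.0623), HOR7 (0.0612) and RTC3 (0.0758) were not called.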

How the data were processed

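The deposited table held 1 log ratio per spot for 13056 spots and 3 arrays of 2 colours, with Cy3 for the yap1 mutant and Cy5 for the wild type, per the labels. It was treated as log2 values as deposited by the authors. The values ran from −6.77 to 1.45, too wide for log10 of intensities, and natural log cannot be told from log2. The sources used here do not give scanner, background correction, normalization or ratio direction. The platform annotation named 11138 spots with 1 symbol, 0 with several and 1918 with none, covering 5539 genes, of which 5534 were found in RefSeq (assembly R64), used for locus names. A gene's spots were averaged and each array centred on its median over genes. Means were tested against 0 (limma 3.58.1 in R 4.3.3, lmFit and eBayes, two-sided, Benjamini-Hochberg over all genes, threshold 0.05), a fit checked on simulated data. Paralog differences had an exact sign-flip test. The spot SD is pooled over arrays. The members and the 8 lists were chosen with earlier results of these data known. Named genes are the 10 members, YAP1, FPS1 and, of each list, up to 6 called genes farthest from 0, or 2 where none was called. The 15 alternatives covered centring, scaling, spots, variance moderation and left-out arrays.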

Additional observations from a re-analysis of the deposited data

How the results depend on the processing

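With 3 arrays, the number of arrays limits the precision, and signal over background was not analysed here. Both strains share each array, so the limma test of the log ratios was already paired by array. The series holds a single group of ratios, so there was no other group to compare them with. Values as deposited and values set against unnamed spots are other zero points for the same ratios, which moved the median of all genes by 0.88 to 1.22 units for the unnamed spots. The cause of the other changes below was not tested.

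As deposited, the calls were 2 high and 5258 low over all genes, 0 of the 10 genes high and 10 low, and 0 of the 58 other pathway genes high and 57 low. The means then were HOG1 −1.80, PBS2 −2.03, SSK1 −1.60, SLN1 −2.19, SHO1 −2.53, GPD1 −1.54, GPD2 −1.08, GPP1 −0.98, GPP2 −1.30 and STL1 −2.23, and CYC8 −1.03, FAA1 −0.84, GUP1 −0.10, HOR7 −0.88, MSB2 −0.94, RCK2 −0.84 and TUP1 −0.88. Against unnamed spots, 4170 genes were high and 10 low, 9 of the 10 genes high, and 38 other pathway genes high and 2 low. The means were HOG1 1.22, PBS2 1.00, SSK1 1.43, SLN1 0.84, GPD1 1.48 and STL1 0.80, and ASK10 0.12, DAK2 0.20, FPS1 0.98, MSN1 0.31, PRB1 0.23, PTP2 0.29, RTC3 0.11, SKO1 0.11 and YAP1 0.23. HKR1 (−0.44) and GCY1 (−0.50) stayed below 0 there but were not called.

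With the first spot of each gene alone, 410 of all genes and 8 other pathway genes were called low, and of the 10 genes 1 was called high (GPP1) and 0 low, with GPD2 at 0.65, GPP2 at 0.57 and GPD1 minus GPD2 at −0.22. With the second spot alone, GPP2 had 0.76 (adjusted p = 0.0615) and GPD1 minus GPD2 was −0.70. With the scatter trend removed, 589 genes were high and 433 low, 5 other pathway genes were high, GPP2 had 0.35, GPD1 minus GPD2 was −1.11 and GPP1 minus GPP2 was 0.67. Leaving out 1 array gave 275 to 826 genes high and 48 to 617 low, 0 to 2 of the 10 genes high, 1 to 9 other pathway genes high and 3 to 12 low. GPD2 ranged from 0.83 to 1.07, GPP1 from 0.89 to 1.13 and GPP2 from 0.53 to 0.81. Centring on all spots, print blocks centred separately, scaling, quantile normalization, spots kept apart, disagreeing genes left out and eBayes with trend and robust variance changed no call of the 10 genes. Of the 15 alternatives, GPP1 lost its call or changed side in 2, GPD2 in 4 and GPP2 in 7.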

Other observations

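GRE2, for a methylglyoxal reductase induced by osmotic stress, was chosen here after its values were seen. It had 1.56 on replicate 1 and −1.80 and −2.15 on replicates 2 and 3, with an SD of 2.05 (n = 3) and a mean of −0.80 (limma adjusted p = 0.228). Its repeated spots differed by an SD of only 0.31, so the arrays disagreed far more than the spots did. Without replicate 1 the mean was −1.98 (limma adjusted p = 1.69e-09, over the remaining 2 arrays). Without replicate 2 it was −0.29 (limma adjusted p = 0.614) and without replicate 3 it was −0.12 (adjusted p = 0.929). The p-values without replicate 1 or replicate 2 followed the size of the mean alone, and do not measure the spread of GRE2 itself. STL1 split the arrays the same way, at 0.57 on replicate 1 against −0.52 and −0.73 on replicates 2 and 3, though less widely and with spots that differed by an SD of 0.62.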
